A study of Mus musculus with 2 samples.

Results

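The nuclear genes of oxidative phosphorylation were followed in liver ATAC-seq, which measures how open chromatin is by the number of fragments that the Tn5 transposase releases from it. Members were all genes of the region table whose symbol begins with Nduf (complex I), Uqcr (complex III), Cox4 to Cox8 (complex IV) or Atp5 (complex V), or is Sdha, Sdhb, Sdhc or Sdhd (complex II). They numbered 81 genes with 163 of the 69549 distinct regions. Regions centred no more than 1000 bp from the closest transcription start site (TSS) counted as promoter regions, and the strongest of them stood for the gene. By this rule 69 of the 81 genes had a promoter region, among 13163 genes in all. These 69 were 36 genes of complex I, 2 of complex II, 5 of complex III, 13 of complex IV and 13 of complex V. The symbols also take in assembly factors and related proteins, which are named as such below.

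Oxidative phosphorylation takes place in the inner mitochondrial membrane. Complex I and complex II pass electrons to ubiquinone, complex III passes them on to cytochrome c and complex IV to oxygen, and ATP synthase, called complex V, uses the resulting proton gradient to make ATP. A few subunits are encoded by mitochondrial DNA, and the others, described here, are encoded in the nucleus. Hepatocytes are rich in mitochondria and use them to burn fatty acids and to power gluconeogenesis and urea synthesis.

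The libraries came from livers of C57BL/6 mice on normal chow at 8 weeks of age. Both groups carried floxed Mettl3, which encodes the catalytic subunit of the m6A RNA methyltransferase. The Mettl3 flox/flox mice had no Cre, and the Mettl3-HKO mice also carried Alb-Cre, whose albumin promoter directs the deletion to hepatocytes and leaves Mettl3 in the other cells of the liver. Livers of several mice were pooled into 1 library per group, so no replicate error exists, no test between the genotypes was possible, and every ratio given compares 2 libraries.

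The Mettl3 flox/flox library had 52826202 reads and the Mettl3-HKO library 58038305, of which 31.7% and 22.3% lay on the regions. Signal is given in RPM, the count plus 1 scaled to the library total. Paired values are given with Mettl3 flox/flox first and Mettl3-HKO second, and log2 ratios divide the second by the first. Each ratio has a 95% Clopper-Pearson counting interval, which covers counting error only. The median log2 ratio was −0.38 over all regions and −0.57 over all promoters. It went from 0.15 in the weakest 10% of promoters to −0.65 in the strongest 10%. Each member was therefore also set beside the 1000 other promoters nearest to it in mean RPM, and the distance of its log2 ratio from their median is called its difference. The Mettl3 promoter region held 566 and 392 counts (log2 ratio −0.66). It lies outside the floxed exons and does not check the deletion.

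The promoter sequences of 7 members that recur below are shown from 250 bases before to 50 after the RefSeq start on GRCm38.p6, on the strand of the gene. Capitals mark every match, on either strand, to 1 of 6 short motifs: NRF1 GCGCANGCG, GABPA CCGGAAG, YY1 AANATGGCG, SP1 GGGCGG, ERRA TCAAGGTCA and CREB TGACGTCA, none of which contains another. Ndufs7 (chr10:80249199-80249498, plus strand) and Ndufa9 (chr6:126849095-126849394, minus strand) are shown because the same YY1 letters stand downstream of both starts, while their ratios lay on opposite sides of promoters of their signal. Sdha (chr13:74350191-74350490, minus strand) is shown for its 3 NRF1 matches. Ndufb6 (chr4:40279372-40279671, minus strand) and Ndufa3 (chr7:3617123-3617422, plus strand) had the highest and lowest difference in complex I. Cox7a2 (chr9:79759804-79760103, minus strand) and Cox7a1 (chr7:30183921-30184220, plus strand) encode the widely expressed and the muscle form of 1 subunit.
Ndufs7: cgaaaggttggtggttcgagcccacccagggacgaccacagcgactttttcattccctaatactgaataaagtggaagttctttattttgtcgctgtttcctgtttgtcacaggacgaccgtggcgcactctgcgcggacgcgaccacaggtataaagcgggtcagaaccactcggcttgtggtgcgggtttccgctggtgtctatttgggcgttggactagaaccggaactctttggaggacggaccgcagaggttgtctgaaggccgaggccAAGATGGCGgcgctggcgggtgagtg
Ndufa9: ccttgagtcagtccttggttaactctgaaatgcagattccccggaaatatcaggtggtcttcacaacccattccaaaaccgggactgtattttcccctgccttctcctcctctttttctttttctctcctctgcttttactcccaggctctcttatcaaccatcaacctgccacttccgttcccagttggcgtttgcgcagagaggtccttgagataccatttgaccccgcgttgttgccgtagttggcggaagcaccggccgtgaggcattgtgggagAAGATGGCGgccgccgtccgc
Sdha: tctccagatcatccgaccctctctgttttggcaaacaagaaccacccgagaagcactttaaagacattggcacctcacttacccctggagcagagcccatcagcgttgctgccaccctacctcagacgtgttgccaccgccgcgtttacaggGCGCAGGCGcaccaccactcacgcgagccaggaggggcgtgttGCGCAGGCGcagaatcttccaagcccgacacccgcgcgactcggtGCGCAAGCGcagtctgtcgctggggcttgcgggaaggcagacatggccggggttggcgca
Ndufb6: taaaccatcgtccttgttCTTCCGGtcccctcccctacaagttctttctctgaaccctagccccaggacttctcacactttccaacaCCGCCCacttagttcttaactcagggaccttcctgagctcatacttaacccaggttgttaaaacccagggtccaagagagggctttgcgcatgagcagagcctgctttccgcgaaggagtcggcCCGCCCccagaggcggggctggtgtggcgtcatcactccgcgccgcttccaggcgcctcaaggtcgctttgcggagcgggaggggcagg
Ndufa3: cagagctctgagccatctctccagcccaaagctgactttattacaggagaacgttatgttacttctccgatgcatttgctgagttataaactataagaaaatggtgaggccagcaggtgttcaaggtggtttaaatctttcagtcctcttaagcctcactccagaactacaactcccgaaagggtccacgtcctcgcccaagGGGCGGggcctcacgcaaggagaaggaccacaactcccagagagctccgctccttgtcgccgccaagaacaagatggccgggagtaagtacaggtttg
Cox7a2: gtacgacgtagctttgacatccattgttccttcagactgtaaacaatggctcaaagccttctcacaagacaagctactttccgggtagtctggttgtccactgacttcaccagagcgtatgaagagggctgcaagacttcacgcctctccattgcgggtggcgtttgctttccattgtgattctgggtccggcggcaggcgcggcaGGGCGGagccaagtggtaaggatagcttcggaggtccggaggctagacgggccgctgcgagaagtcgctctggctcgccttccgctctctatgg
Cox7a1: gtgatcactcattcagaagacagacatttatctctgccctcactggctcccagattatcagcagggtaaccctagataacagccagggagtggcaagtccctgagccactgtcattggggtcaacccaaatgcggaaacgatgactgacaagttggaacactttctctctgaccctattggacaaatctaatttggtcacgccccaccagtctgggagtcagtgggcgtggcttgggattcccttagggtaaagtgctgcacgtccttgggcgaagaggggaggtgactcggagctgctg

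Promoters of oxidative phosphorylation genes were open in both libraries. A peak was called in both for 68 of the 69 promoter regions, against 87.1% of all promoters. The exception was Cox6b2, the testis form of a complex IV subunit, with a peak in the Mettl3-HKO library only. The median promoter signal of the members was 11.2 RPM in Mettl3 flox/flox livers and 7.89 RPM in Mettl3-HKO livers, beside 8.05 and 5.15 RPM for all promoters. Of the 69, 54 were in the upper 50% of promoters by mean RPM and 7 in the upper 10%.

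The median region was 897 bp long, against 808 bp for all promoters, and its centre lay within 200 bp of the TSS for 54 members (78.3%, against 64.1% of all promoters). By the annotation of the table the centre was intergenic for 24 members (34.8%, against 40.1% of all promoters), in the first exon for 22 (31.9%, against 14.0%), in the first intron for 11 (15.9%, against 14.8%) and in the leading untranslated region for 9 of the 69, against 19.8%. In the 3 others it lay in the last exon or last intron. The member promoter farthest from its TSS was that of Ndufa13, with its centre at −632 bp from the TSS (581 and 314 counts), and just outside the limit of 1000 bp was a region of Atp5j at −1010 bp with 327 and 339 counts.

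Median mean RPM by complex was 9.25 for complex I, 12.0 for complex II, 9.29 for complex III, 7.40 for complex IV and 12.4 for complex V. Within each complex of 5 or more genes the levels overlapped those of the others. The strongest promoter of all was that of Ndufaf4, a complex I assembly factor (chr4:24896718-24898476), at 79.1 RPM without and 40.3 RPM with the hepatocyte deletion. The weakest were Cox6b2 at 0.719 and 0.982 RPM and Cox7a1 at 1.76 and 2.14 RPM, the testis and the muscle form of their subunits. Per kilobase of region the medians were 10.5, 16.0, 9.40, 10.8 and 14.0 RPM for complexes I to V, so complex IV no longer had the lowest median.

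**Figure D1:**
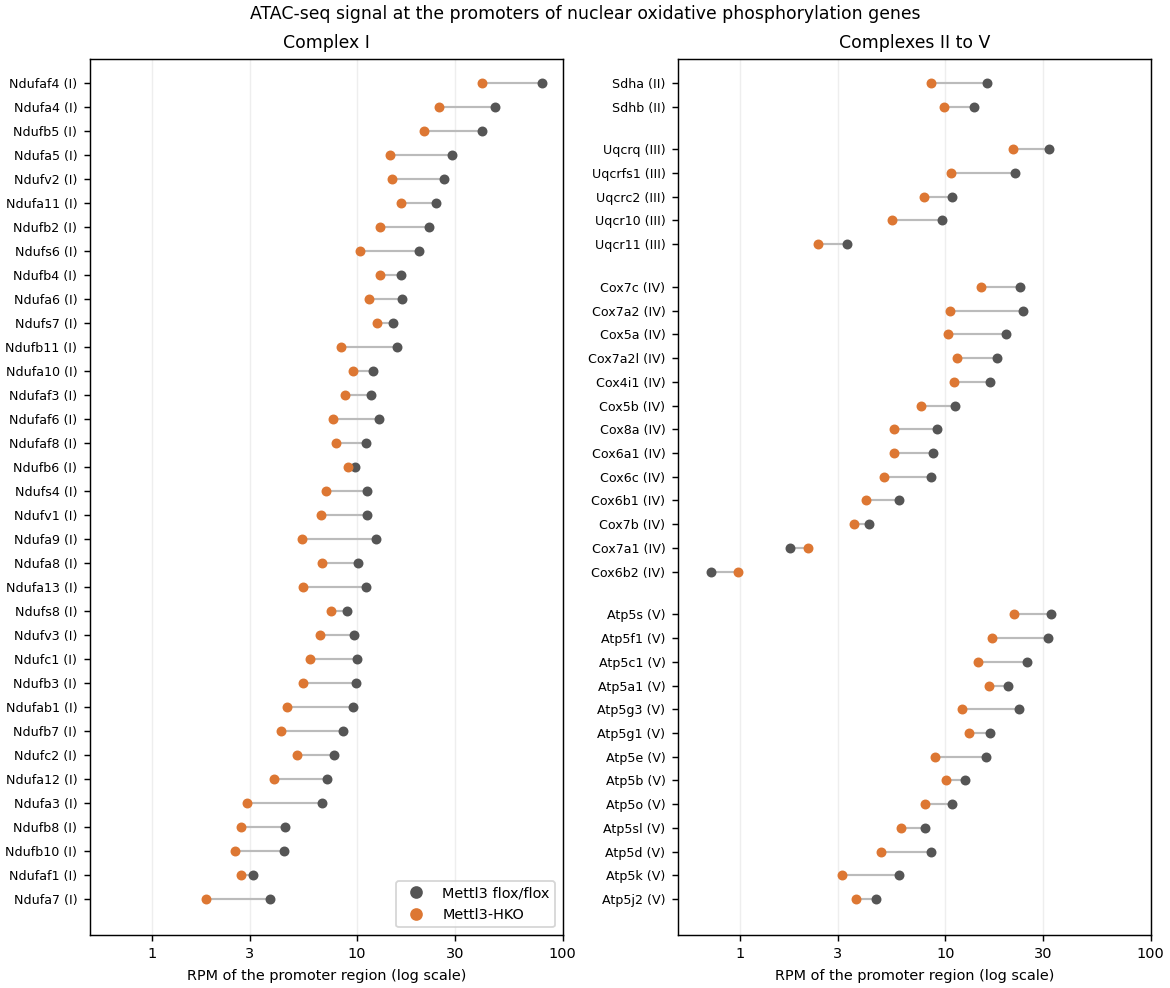
RPM of the promoter region of 68 of the 69 genes in the Mettl3 flox/flox library (grey) and the Mettl3-HKO library (orange), on a log axis, ordered within each complex by mean RPM. In 66 of these 68 genes the orange point is to the left of the grey one, Cox7a1 and Cox6b2 being the exceptions, and with ratios centred on the strongest 10% of promoters 35 of the 69 would be lower.

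On the scale of the library totals, 67 of the 69 member promoters had a lower signal in the Mettl3-HKO library, as did most promoters of the genome. The median log2 ratio of the members was −0.67, with the middle 50% between −0.91 and −0.47, beside −0.85 to −0.27 for all promoters. A log2 ratio above 0 was found for 2 of 69 members (2.9%), both with intervals that include 0, against 14.9% of all promoters. At least 2-fold lower were 8 members (11.6%), against 15.9% of all promoters, and no member was at least 2-fold higher, against 3.84%. In bulk liver, fewer cells of a type and less open chromatin per cell cannot be told apart.

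These directions depend on the scaling. Centred on the median of all regions (a shift of −0.38), scaled to the reads on regions (−0.51) or centred on the strongest 10% of promoters (−0.65), 13, 20 and 34 of the 69 members (18.8%, 29.0% and 49.3%) were above 0, against 32.5%, 44.3% and 58.8% of all promoters. No member was at least 2-fold lower under these 3, against 4.61%, 2.90% and 1.79% of all promoters. The difference from promoters of the same signal does not change when all ratios are shifted. Its median over the members was −0.03, beside 0.00393 over all promoters, and 30 of 69 members (43.5%) lay above the same-signal median, against 50.5% of all promoters. The counting interval lay wholly below that median for 25 members (36.2%, against 29% of all promoters) and wholly above it for 15 (21.7%, against 28.6%). As a family the members thus sat close to other promoters of their signal, with single genes on both sides of them.

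**Figure D2:**
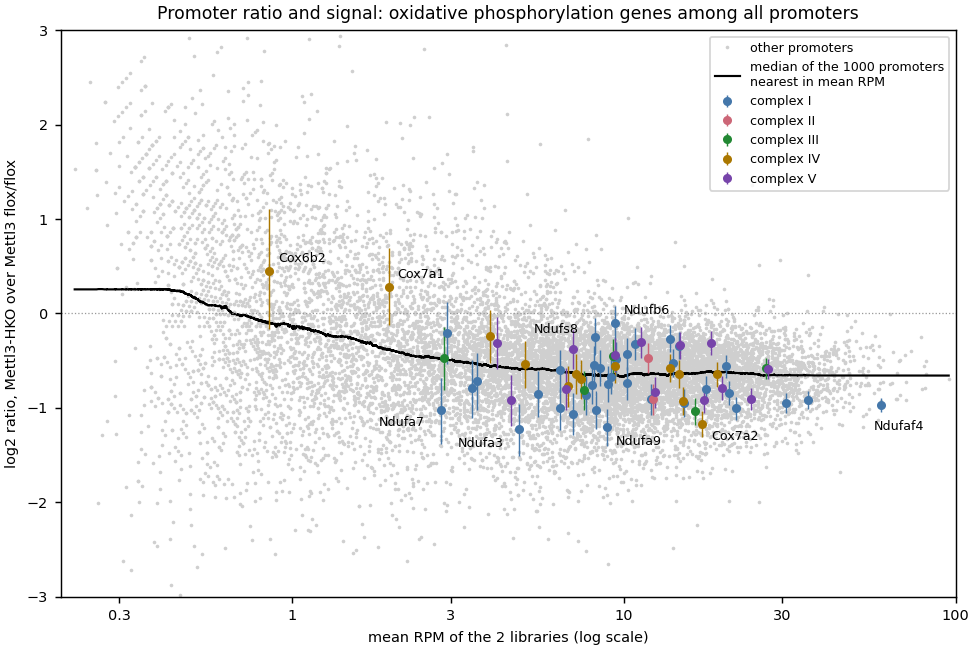
Log2 ratio (Mettl3-HKO divided by Mettl3 flox/flox) against mean RPM on a log axis for 68 member promoters, coloured by complex with 95% counting intervals, and for 13075 other promoters (grey; 19 lie outside the axes). The black line is the median of the 1000 promoters nearest in mean RPM, and the members lie on both sides of it, from Ndufa3 and Ndufa9 below to Ndufb6 and Cox7a1 above.

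Complex I, NADH dehydrogenase, had the lowest median difference of the 5 complexes, at −0.15, with 13 of 36 genes above the same-signal median. Its median log2 ratio was −0.75, and 6 of its 36 genes were at least 2-fold lower, a share close to the 15.9% of all promoters. The 6, like 26 of the 36 genes, encode supernumerary subunits, which surround the catalytic core and take no direct part in electron transfer. The 26 promoters of supernumerary subunits had a median difference of −0.24, with 7 of 26 above the same-signal median (against 50.5% of all promoters), and intervals wholly below it for 14 and wholly above it for 3 (against 29% and 28.6%). The 4 promoters of core subunits given singly had a median difference of 0.15 and the 5 of assembly factors one of 0.17. Genes of 1 library are not replicates, so these medians were not tested against each other, and their ranges overlap.

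Ndufa3 encodes a small membrane subunit and had the lowest difference of all members, with 357 counts in Mettl3 flox/flox and 167 in Mettl3-HKO (log2 ratio −1.23, interval −1.51 to −0.96, difference −0.64). Ndufa9 encodes a subunit beside the ubiquinone-binding site and held 654 and 311 counts (log2 ratio −1.21, interval −1.41 to −1.01, difference −0.55). Both intervals end below the same-signal median of their promoters. Ndufab1, the mitochondrial acyl carrier protein, had 501 and 263 counts (log2 ratio −1.06). Ndufa13, also known as a cell death regulator, had 581 and 314 (−1.02), Ndufa5 1536 and 840 (−1.01), and Ndufa7 197 and 106 (−1.02). The regions of Ndufa13 and Ndufa7, centred at −632 and −342 bp, lie wholly upstream of the TSS and do not cover it. Ndufa7 had the weakest promoter of complex I, and its interval was the widest of these 6, at −1.38 to −0.68. Ndufb7, with 450 and 247 counts, lay at the threshold (−0.999, interval −1.23 to −0.77).

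The opposite end of complex I was Ndufb6, a supernumerary subunit of the membrane arm (chr4:40278768-40279955). With 512 and 525 counts its log2 ratio was −0.10, with an interval of −0.28 to 0.08. This was above 96.1% of the promoters of its signal (difference 0.55). Ndufa10 (633 and 556 counts, difference 0.32) and Ndufb4 (863 and 747, difference 0.29) were the other supernumerary subunits with an interval wholly above the same-signal median. They were 3 exceptions among subunits that mostly lay below it.

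Among the core subunits, which carry the iron-sulphur clusters and the flavin, Ndufs8 had 468 and 434 counts (log2 ratio −0.24, difference 0.41) and Ndufs7 791 and 723 (log2 ratio −0.27, difference 0.38). Both intervals lay wholly above the same-signal median. Ndufv2, with 1400 and 857 counts (log2 ratio −0.84, difference −0.22), had its interval wholly below it, while that of Ndufv1, with 589 and 386 counts (difference −0.09), included it. The core subunits thus lay on both sides of promoters of their signal.

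Of the assembly factors, Ndufaf4 combined the strongest member promoter, with 4175 and 2340 counts, with a log2 ratio of −0.97 (interval −1.04 to −0.90) and a difference of −0.31. Ndufaf3, which acts in the same early assembly step, had 619 and 506 counts and a difference of 0.24. Ndufaf1 and Ndufaf8 had differences of 0.28 and 0.17, with intervals that overlapped the same-signal median, and Ndufaf6 one of −0.08. The 2 next strongest promoters of complex I also had intervals wholly below that median. These were Ndufa4 (2479 and 1446 counts, difference −0.26), whose product is now placed in complex IV, and Ndufb5 (2147 and 1224, difference −0.29).

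Complex II, succinate dehydrogenase, was represented by 2 promoters that lay on opposite sides of the same-signal median. Sdha, the flavoprotein, had 842 and 492 counts (log2 ratio −0.91, interval −1.07 to −0.75, difference −0.27). Sdhb, the iron-sulphur subunit, had 726 and 574 (log2 ratio −0.47, interval −0.64 to −0.31, difference 0.17). The intervals of the 2 subunits, which form the catalytic dimer, did not overlap.

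Complex III, the cytochrome bc complex, had 5 promoters with a median difference of 0.01. Uqcrfs1, the Rieske iron-sulphur protein, was the lowest, with 1159 and 620 counts (log2 ratio −1.04, interval −1.18 to −0.90, difference −0.40), and was the only complex III promoter at least 2-fold lower. Uqcrc2, a core protein, was the highest, with 566 and 454 counts (log2 ratio −0.45, interval −0.64 to −0.27, difference 0.19). Uqcrq, a small subunit, had the strongest promoter (1691 and 1241 counts, log2 ratio −0.58, interval −0.69 to −0.48). The weakest was that of Uqcr11 (175 and 138 counts, log2 ratio −0.48, interval −0.81 to −0.15). Both of these, and Uqcr10 (510 and 318, difference −0.16), had intervals that included the same-signal median.

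Complex IV, cytochrome c oxidase, sat on the same-signal median, with a median difference of −6.2e-05, and for 9 of its 13 promoters the interval included that median, as it did for 29 of the 69 members and 42.4% of all promoters. The strongest promoter was Cox7c (1225 and 860 counts, log2 ratio −0.65, interval −0.77 to −0.52). Cox5a (1040 and 600, difference −0.29) and Cox7a2 were wholly below the same-signal median, and Cox7b (224 and 208, difference 0.32) and Cox7a1 wholly above it. Cox7b encodes a small subunit from the X chromosome. Cox5b, Cox6c and Cox8a, other structural subunits, had differences of 0.09, −0.15 and −0.05.

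Complex IV is the complex with the most tissue forms. Cox7a2, the form found in liver, had 1254 and 612 counts (log2 ratio −1.17, interval −1.31 to −1.03, difference −0.55) and was the only complex IV promoter at least 2-fold lower. Cox7a1, the heart and muscle form, had 92 and 123 counts (log2 ratio 0.28, interval −0.12 to 0.69, difference 0.66), the highest difference of all members. Cox7a2l, a related protein that takes part in supercomplex assembly, had 941 and 663 counts and a difference of −0.01. The 3 genes thus differed in level as well as in ratio, and the liver form and the muscle form had intervals far apart.

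Cox6b1, the common form, had 313 and 237 counts (difference 0.05), and the testis form Cox6b2 had 37 and 56 (log2 ratio 0.45, interval −0.16 to 1.10, difference 0.55), an interval that includes both 0 and the same-signal median. Cox4i1 had 871 and 640 counts (difference 0.06), Cox6a1 460 and 324 and Cox8a 482 and 327. For their partners Cox4i2, Cox6a2 and Cox8c no region was analysed here, and Cox8b had no region over its start, as was true of Cox7b2 and Ndufa4l2. The 2 weak tissue forms gave the only ratios above 0 on this scale. When they were left out the median log2 ratio of the members was −0.69. The Cox6b2 region had a peak in Mettl3-HKO only and, centred at 565 bp, lies wholly downstream of the TSS.

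Complex V, ATP synthase, had the highest median difference, at 0.07, with 7 of 13 promoters above the same-signal median (against 50.5% of all promoters). Its promoters lay on either side, with intervals wholly above for 5 and wholly below for 5 (against 28.6% and 29% of all promoters). The value rests partly on Atp5s and Atp5sl, which are named for the synthase but are not structural parts of it. Without them the median difference was −0.17. Atp5s had the strongest promoter (1717 and 1259 counts, log2 ratio −0.58, interval −0.69 to −0.48) and a difference of 0.07, and Atp5sl had 419 and 354 counts and a difference of 0.25.

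The catalytic head of the synthase was split. Its alpha and beta chains, which form the catalytic sites, were the highest: Atp5b had 655 and 582 counts (log2 ratio −0.31, interval −0.47 to −0.14, difference 0.33) and Atp5a1 1071 and 946 (log2 ratio −0.31, interval −0.44 to −0.19, difference 0.30). The chains of the central stalk were lower. Atp5c1, the gamma chain, had 1323 and 839 counts (difference −0.17), Atp5d, the delta chain, 447 and 282 (−0.18) and Atp5e, the epsilon chain, 836 and 515 (−0.19). The intervals of the alpha and beta chain promoters did not overlap those of the 3 stalk chains.

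Among the membrane and outer stalk parts, Atp5k had the lowest difference of the complex (314 and 182 counts, log2 ratio −0.92, interval −1.19 to −0.65, difference −0.34) and Atp5f1, stalk subunit b, had 1668 and 977 counts (difference −0.27). Atp5j2, a membrane subunit with the weakest promoter of the complex, had 241 and 213 (log2 ratio −0.31, interval −0.59 to −0.04, difference 0.25). Atp5o, the subunit named for oligomycin sensitivity, had 571 and 461 and a difference of 0.20. The 3 genes for the same c subunit of the proton ring differed: Atp5g1 had 868 and 754 counts (log2 ratio −0.34, interval −0.48 to −0.20), Atp5g3 1202 and 701 (log2 ratio −0.91, interval −1.05 to −0.78), and the region over the RefSeq start of Atp5g2, which the table assigns to an unnamed gene, 797 and 571 (log2 ratio −0.62, interval −0.77 to −0.46). The intervals of Atp5g1 and Atp5g3 did not overlap.

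**Figure D3:**
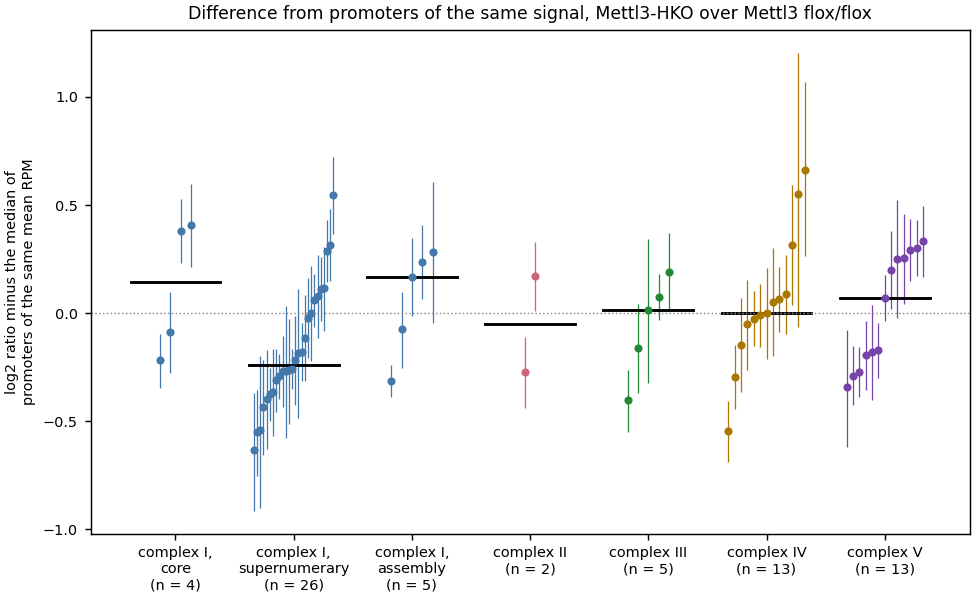
Log2 ratio of each of 68 member promoters minus the median of promoters of the same mean RPM, by complex and, for complex I, by class of protein, with the 95% counting interval of the ratio and the median of each group (black bar). Supernumerary subunits of complex I have a median of −0.24, while complexes III and IV lie near 0.

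For 12 members no region met the promoter rule. Of these, 10 had a region over their start, which the table assigns to another gene for 8 of them. Sdhd, a membrane anchor of complex II, shared its region with Timm8b (684 and 466 counts, difference −0.05) and Atp5j, a stalk subunit, shared one with Gabpa, which encodes an ETS-type activator of these genes (3302 and 2172 counts, log2 ratio −0.74, difference −0.08). The region of the assembly factor Ndufaf2 and Ercc8 had 1287 and 577 counts (log2 ratio −1.29, interval −1.44 to −1.15). Uqcrc1, a core protein of complex III, had 348 and 329 (log2 ratio −0.22, interval −0.44 to 0.00486).

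RefSeq lists 96 protein-coding genes of these families, of which 17 had no matching symbol in the table. For 7 of them a region lay over the start, for 2 none did, and 8 were not analysed here. Ndufs3, a core subunit of complex I, had 443 and 302 counts (region assigned to Kbtbd4, log2 ratio −0.69) and Ndufb1 801 and 723 (assigned to Cpsf2, −0.28). Ndufa1, a supernumerary subunit, had 447 and 208 (assigned to Rnf113a1, log2 ratio −1.24, interval −1.48 to −0.999). Over the 17 start regions, 10 of members and 7 of such genes, the median log2 ratio was −0.69, all 17 were below 0 on the scale of the library totals, and 2 were at least 2-fold lower, beside 14.9% of all promoters above 0 and 15.9% at least 2-fold lower. The same 17 had a median difference of −0.05.

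Further genes of the pathway outside these families were described from a list of 65, of which 44 had a promoter region. Their median log2 ratio was −0.64 and their median difference −0.01, and 4 of the 44 were at least 2-fold lower and none higher, beside the 15.9% and 3.84% of all promoters. The 4 electron carrier genes with a promoter region had differences from −0.28 for Cyc1, cytochrome c1 of complex III (451 and 267 counts), to −0.00096 for Etfb, part of the electron transfer flavoprotein (1303 and 931). The 26 assembly factors had a median difference of 0.04, and the highest of the list was Pet100, which acts in complex IV assembly (533 and 576 counts, log2 ratio −0.02, difference 0.64).

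Of 13 regulator genes with a promoter region, 4 lay above the same-signal median, against 50.5% of all promoters. The lowest of the list was Ppargc1b, a coactivator of mitochondrial genes, with 565 and 237 counts (log2 ratio −1.39, interval −1.61 to −1.17, difference −0.74). Tfam, which packages and transcribes mitochondrial DNA, had 772 and 406 counts (log2 ratio −1.06, interval −1.24 to −0.89), and Ppargc1a, the better known relative of Ppargc1b, 480 and 274 (log2 ratio −0.94, interval −1.16 to −0.73). Nrf1 (680 and 552, difference 0.20) and Sp1 (2390 and 1916, difference 0.20) were on the other side. Atpif1, the inhibitor of ATP synthase, had 129 and 138 counts (log2 ratio −0.04, interval −0.40 to 0.32).

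Promoters of marker genes of other liver cells had ratios of their own. Promoters of 7 of 8 endothelial markers summed to 2.90 and 6.89 RPM, with counts in the marker sums scaled without the added 1. Of the 7, 5 were at least 2-fold higher, against 3.84% of all promoters. These 5 were weak, from Tek with 11 and 39 counts to Kdr with 25 and 89, and had a peak in Mettl3-HKO only. They entered the table through that library alone, so higher ratios were favoured in advance. Promoters of 2 of 8 macrophage markers summed to 1.003 and 1.93 RPM. Both, C1qa (8 and 40 counts) and Cd14 (45 and 72), had a peak in Mettl3-HKO only, so the same holds for them. Promoters of 2 of 8 stellate markers summed to 13.8 and 3.02 RPM and of 5 of 8 cholangiocyte markers to 15.7 and 12.0 RPM. No lymphocyte marker had a promoter region. The stellate sum was nearly all Reln (690 and 132 counts), the other being Col1a1 (37 and 43). The largest cholangiocyte counts were those of Sox9 (520 and 397). Of the 5, 4 lay above the same-signal median, against 50.5% of all promoters. They include Spp1 (13 and 34 counts), with a peak in Mettl3-HKO only. All 8 hepatocyte markers had a promoter region, with log2 ratios from −1.32 for Serpina1a to 0.02 for Alb. Their median difference was −0.01 and their sum 69.4 and 46.6 RPM. The part of cell composition in the ratios of the members was not tested.

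What the member promoters share in sequence was read from RefSeq windows, 300 bases each, which matched by gene name for 62 of the 69 members and overlapped the promoter region for 58. They were set beside all 7716 genes (58.6% of the 13163) for which the same held. The NRF1 string, named for nuclear respiratory factor, was found in 15 of 58 members (25.9%) and 14.9% of all genes. The YY1 string was found in 10 members (17.2%) and 5.59% of all genes, and the GABPA string in 12 (20.7%) and 18.8%. At least 1 of these 3 was present in 32 members (55.2%, against 34.2%). SP1 was less common among members (25, or 43.1%, against 68.4%), and their windows had a median GC content of 57.8% and 19 CG dinucleotides, against 61.7% and 22. CREB letters occurred in 4 members (6.90%, against 3.47%) and the ERRA string in 1, Atp5g3 (1.72%, against 0.233%).

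**Figure D4:**
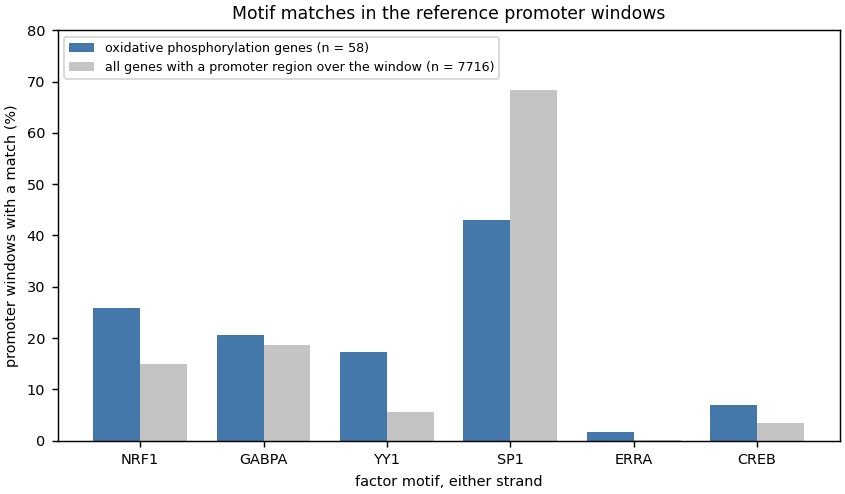
Share of reference promoter windows with at least 1 match to each motif, for the 58 oxidative phosphorylation genes (blue) and all 7716 genes with a promoter region over the window (grey), as a percent. The bars of the members and of all genes stand at 25.9% and 14.9% for NRF1, 17.2% and 5.59% for YY1, 20.7% and 18.8% for GABPA and 43.1% and 68.4% for SP1, and ERRA rests on 1 member.

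The YY1 letters were found in 7 of 32 windows of complex I and 3 of 11 of complex V, and in none of complexes II to IV. In Ndufs7 the match spans bases 25 to 33 after the start and in Ndufa9 bases 30 to 38, and both read AAGATGGCG, yet the differences were 0.38 and −0.55. Of the 3 NRF1 matches in Sdha, at −98 to −90, −55 to −47 and −10 to −2, the last ends next to the start. The median difference of the members was −0.17 with an NRF1 match and −0.03 without, 0.07 and −0.07 for YY1, and 0.03 and −0.14 for GABPA. These are descriptions of letters in a window, with no measure of binding.

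Another gene started on the opposite strand within 1000 bp upstream for 12 of the 58 members (20.7%, against 14.4% of all genes). They include Ndufb5 with Mrpl47, which encodes a protein of the mitochondrial ribosome, Ndufa4 with Phf14, Sdha with Ccdc127, Atp5c1 with Kin and Atp5f1 with Wdr77. Their promoters had a median of 16.0 mean RPM, against 9.39 for the other 46, and a median difference of −0.24, against −0.01. Over all genes the corresponding medians were 11.6 and 7.86 mean RPM, and the differences 0.01 and 0.00422.

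The members also had 93 regions outside promoters, in 37 genes, assigned by closest TSS only. They include the regions over the RefSeq starts of Ndufs5 and Uqcrc1 counted above. Their median log2 ratio was −0.62, beside −0.27 for all 55162 such regions. At least 2-fold lower were 29 of them (31.2%, against 18.8% of all), and at least 2-fold higher 12 (12.9%, against 15.6%). The median region had 75 and 69 counts, against 66 and 68 for all such regions, so many single ratios are imprecise. Regions outside promoters were not set beside others of the same signal. A region with a peak in 1 library only entered the table through that library alone. Among the 43 with a peak in both, 12 were at least 2-fold lower (27.9%, against 15.7% of all such regions) and 2 at least 2-fold higher (4.65%, against 3.76%). Median counts of these 43 were 201 and 156, against 133 and 116.

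Of the 3 regions assigned to Uqcrfs1, 1 was called as a peak in both groups (110 and 45 counts, log2 ratio −1.41, interval −1.96 to −0.91). The closest, with its centre at −3661 bp (chr13:30548900-30549148), had a peak in Mettl3 flox/flox only and 184 and 34 counts (log2 ratio −2.54, interval −3.14 to −2.04). Of the 6 regions of Ndufaf6, the strongest, at −8787 bp (chr4:11084625-11085359), had a peak in both libraries and 1055 and 467 counts (log2 ratio −1.31, interval −1.47 to −1.15). The 5 others had a peak in Mettl3-HKO only, and 4 of them had ratios above 0, up to 2.30.

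Inside member genes lay 21 of the regions, of which 5 were at least 2-fold lower (23.8%, against 18.8% of all regions outside promoters) and 3 at least 2-fold higher (14.3%, against 15.6%), shares near those of all such regions. Of the 5 lower regions 4 had a peak in Mettl3 flox/flox only, and of the 3 higher 2 had one in Mettl3-HKO only. The lower region with a peak in both groups, in the last exon of Ndufa4l2, had 215 and 106 counts (log2 ratio −1.15). A region in an intron of Sdhc (chr1:171142989-171143653) with a peak in both groups had 110 and 290 counts (log2 ratio 1.25, interval 0.94 to 1.59), and another such region in the last intron of Ndufa8 (chr2:36039336-36039953) had 136 and 296 (log2 ratio 0.98, interval 0.69 to 1.29). The promoter of Ndufa8 had 533 and 392 counts (log2 ratio −0.58). Of the 3 regions in the first intron of Ndufs4, a subunit added late to complex I, 1 was called as a peak in both groups (240 and 331 counts, log2 ratio 0.33, interval 0.08 to 0.57). The others, with 35 and 70 and with 12 and 75 counts, had a peak in Mettl3-HKO only. The Ndufs4 promoter had 590 and 407 (log2 ratio −0.67). The 3 regions assigned to Ndufv1, all with a peak in both libraries, had log2 ratios of −1.29 to −1.14. The 4 assigned to Uqcr10, of which 2 had a peak in Mettl3 flox/flox only, had log2 ratios of −1.41 to −0.97. Of the 7 assigned to Ndufb9, 5 lie in an intron of Mtss1, and all 7 were below 0 on the scale of the library totals, with the largest, 65743 bp from the Ndufb9 start, at 1851 and 1380 counts.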

How the data were processed

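ATAC-seq was analysed for 1 pooled Mettl3 flox/flox library and 1 pooled Mettl3-HKO library. The authors trimmed adaptors with skewer, aligned reads with BWA to GRCm38, kept properly paired nuclear reads, called peaks per library with MACS2 with duplicates kept, and merged the peaks. They deposited raw read counts per region and RPM values, which equal the count plus 1 scaled by the library total. The totals were recovered from the values. How reads were counted and whether ends were shifted for Tn5 is not given in the sources used here. The authors' own log2 ratios and enrichments were not used.

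Of 74821 rows, 5272 repeated a region and were dropped. Ratios were computed from the deposited counts with 1 read added. With 1 library per group, no test was run, and 2-fold marks a call. Duplicate reads make counts less independent than the counting intervals assume. Sequences are from RefSeq GRCm38.p6, which spells 3 members differently, and older names were matched by synonym. In each complex, the strongest and weakest promoter, the highest and lowest difference, and the tissue isoforms are given in full; every member could be named. For 1 member, kept in the counts and medians over the family and its complex, the values are not reported here. Regions outside promoters and further start regions were named after their values were seen. Members, lists and motifs were chosen with earlier results of these data known. Scripts, tested on simulated data, used matplotlib 3.10.9, scipy 1.17.1, pandas 2.3.3, numpy 2.4.6 and Python 3.11.15. Alternatives covered the scaling, added reads, window, summing, count minimum, gene classes and the number and signal of the promoters compared.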

Additional observations from a re-analysis of the deposited data

How the results depend on the processing

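Of 108 values recomputed under alternatives, 95 counted as unmoved. The limit was the distance from the middle to an end of the median member's counting interval, or 1.5 times for counts. Some values could not move, because the count minimum left out no member and some alternatives left whole complexes unchanged. Scaling moved the median log2 ratio from −0.67 to −0.29 when centred on all regions, −0.16 when scaled to the reads on regions and −0.016 when centred on the strongest 10% of promoters. Under these 3 the members at least 2-fold lower fell from 8 to 0, against 4.61%, 2.90% and 1.79% of all promoters, and under the last 1 member, Cox6b2, was at least 2-fold higher, against 9.24%. Under the alternatives without a change of scaling they numbered 6 to 10. The median difference of complex V, 0.07, was −0.17 for structural subunits alone and −0.043 with the regions over gene starts. In both it was below that of complex III. The regions over gene starts were an alternative chosen after seeing the data, as were leaving out Cox7a1 and Cox6b2 and, outside promoters, keeping regions with a peak in both libraries. The median difference of complex I was between −0.18 and −0.11 throughout. Per kilobase of region the median mean RPM was 10.5, 16.0, 10.8 and 14.0 for complexes I, II, IV and V. No paired analysis was possible because each group had 1 library. Without replicates, differences between mice cannot be seen, and for the weakest promoter, Cox6b2, the counting interval alone spans more than a 2-fold range.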
